A study of Mus musculus with 4 samples.

Results

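The nuclear genes for the subunits of the oxidative phosphorylation complexes were examined for peaks of the transcription factor MIZ-1 in splenic B cells. Members were the protein-coding nuclear genes of the GENCODE basic mm10 annotation whose symbols begin with Nduf, Sdha, Sdhb, Sdhc, Sdhd, Uqcr, Cox4, Cox5, Cox6, Cox7, Cox8 or Atp5. They were 98 gene models with 97 symbols, of 21938 protein-coding nuclear genes in all. By symbol stem, 38 members were assigned to complex I, 4 to complex II, 8 to complex III, 17 to complex IV and 17 to complex V. The other 14 were set apart as assembly and other factors. A stem such as Nduf need not match the complex that holds the protein, as for Ndufa4 and Ndufa4l2, and the assignments were not checked. The symbol Atp5o was carried by a pair of models, one of which (ENSMUSG00000116933) runs over neighbouring genes. Chromatin immunoprecipitation followed by sequencing (ChIP-seq) had been done on B220+ splenocytes, the cells of the spleen that carry the B lineage antigen B220, from Miz-1WT mice and from MIZ-1DPOZ mice. MIZ-1DPOZ mice carry a Miz-1 allele with a floxed POZ domain and the MB1-cre allele, which the study describes as driven by the Cd79a promoter. The deletion is therefore driven by a promoter of the B lineage. It leaves B cells with a MIZ-1 that lacks the POZ domain but keeps its zinc fingers. Each genotype had 1 ChIP library, made with the MIZ-1 antibody H-190, and 1 input library, with no treatment named. The study's methods describe young adult animals on a C57BL/6 background, the number of animals behind a library was not given in the labels, and ChIP data hold no RNA with which the cell type could be checked.

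Oxidative phosphorylation takes place on the inner mitochondrial membrane. Complexes I and II pass electrons from NADH and succinate to ubiquinone, complex III hands them to cytochrome c and complex IV to oxygen, while the resulting proton gradient drives the ATP synthase, complex V. Most subunits are encoded in the nucleus, made in the cytosol and imported, and the remaining ones come from mitochondrial DNA. MIZ-1 (Zbtb17) is a zinc finger protein that binds promoters and uses its POZ domain to pair with itself and with partner proteins.

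Both peak lists rested on few fragments. A peak is described by its summit pileup, the number of fragments over its highest point, by its fold enrichment over the local background, and by −log10 q, where a larger value is a stronger peak. Over all peaks the median pileup was 9 fragments for MIZ-1WT (34209 peaks) and 12 for MIZ-1DPOZ (78357 peaks). The MIZ-1DPOZ ChIP library was 1.34 times deeper, by the ratio of the most frequent backgrounds, each divided by the smallest peak width of its list. With 1 library per genotype, mice and libraries cannot be told apart, no p-value is given, and intervals cover counting error only.

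Sequence at the summit is shown for the members that lead each class of promoter peak, namely 4 among the strongest in both lists (Ndufa5, Uqcrc2, Atp5g2 and Atp5j) and the strongest in MIZ-1WT only (Ndufa6) and in MIZ-1DPOZ only (Cox7a1). Each is mm10 sequence read on the strand of the gene, with 11 bases centred on the summit in capitals. Exons were left out, except at Ndufa5, whose MIZ-1WT summit lay in an untranslated exon and is shown with 30 bases. The stretches are chr6:24527602-24527631 (minus strand) for Ndufa5, chr7:120635468-120635688 (plus strand) for Uqcrc2, chr15:102670872-102671017 (minus strand) for Atp5g2, chr16:84835657-84835877 (minus strand) for Atp5j, chr15:82353824-82354044 (minus strand) for Ndufa6 and chr7:30183519-30183739 (plus strand) for Cox7a1.
Ndufa5: gactcaggggCAGCATCGACGctcgattga
Uqcrc2: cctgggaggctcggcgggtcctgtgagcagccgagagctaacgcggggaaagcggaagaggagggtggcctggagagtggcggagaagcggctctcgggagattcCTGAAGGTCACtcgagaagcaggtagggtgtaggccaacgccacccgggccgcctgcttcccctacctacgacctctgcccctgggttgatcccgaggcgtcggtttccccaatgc
Atp5g2: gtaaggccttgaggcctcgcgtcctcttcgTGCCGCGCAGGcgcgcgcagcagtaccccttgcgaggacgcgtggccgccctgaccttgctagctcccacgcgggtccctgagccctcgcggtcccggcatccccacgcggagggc
Atp5j: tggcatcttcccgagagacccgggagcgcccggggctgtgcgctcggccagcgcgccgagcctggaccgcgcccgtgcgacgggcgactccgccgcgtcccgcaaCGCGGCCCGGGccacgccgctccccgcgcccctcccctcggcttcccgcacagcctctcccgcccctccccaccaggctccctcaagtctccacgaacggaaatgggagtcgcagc
Ndufa6: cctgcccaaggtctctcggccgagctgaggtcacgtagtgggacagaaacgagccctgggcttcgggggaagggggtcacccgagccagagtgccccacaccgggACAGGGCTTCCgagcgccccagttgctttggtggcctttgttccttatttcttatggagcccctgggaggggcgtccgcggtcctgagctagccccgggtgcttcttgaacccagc
Cox7a1: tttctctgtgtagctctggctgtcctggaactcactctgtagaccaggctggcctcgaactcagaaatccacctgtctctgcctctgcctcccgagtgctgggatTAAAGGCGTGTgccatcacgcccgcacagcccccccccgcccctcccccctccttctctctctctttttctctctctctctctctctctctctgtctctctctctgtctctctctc
The stretch at Atp5j was the richest in G and C, at 76.5% with 32 CpG, and the stretch at Cox7a1 the poorest, at 57.9% with 6 CpG. Around the Cox7a1 summit 100% of the bases within 100 bp were marked as repeat in the genome, and the stretch ends in a run of alternating c and t. None of the 6 stretches held any of the motifs described further on.

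To ask how often MIZ-1 lay at respiratory chain promoters, each member was scored for any peak from 2000 bp before to 1000 bp after a transcript start. In the MIZ-1WT list 20 of 98 members (20.4%, 95% Wilson interval 13.6 to 29.4) had a promoter peak, against 30.9% of all protein-coding nuclear genes. In the MIZ-1DPOZ list 32 members (32.7%, 24.2 to 42.4) had one, against 48.7%. Both lists had a peak at 11 members (11.2%, 6.38 to 19.0), against 26.7%. A further 9 members (9.18%, 4.91 to 16.5, against 4.22%) had a peak in the MIZ-1WT list only, and 21 (21.4%, 14.5 to 30.5, against 22.0%) in the MIZ-1DPOZ list only. Neither list had a promoter peak at 57 members (58.2%, 48.3 to 67.4, against 47.1%). The members therefore held fewer peaks than the background in each list, and their share in the MIZ-1DPOZ list only was near the background. Without the 14 assembly and other factors 84 subunits remained, of which 21.4% had a MIZ-1WT peak and 34.5% a MIZ-1DPOZ peak. With the MIZ-1DPOZ list shortened to its strongest peaks, as many as MIZ-1WT had, 16.3% of the members had a MIZ-1DPOZ peak (against 25.4%) and 14.3% a MIZ-1WT peak only (against 14.8%), so the excess of the latter over its background was not present with that list, which differs from the whole one in both length and strength.

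**Figure D1:**
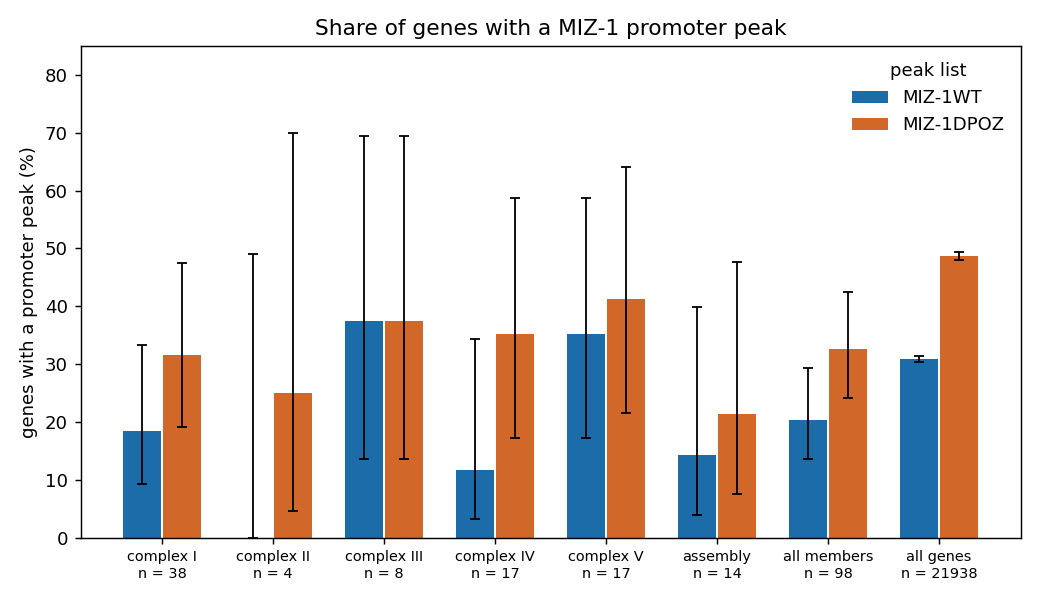
Bars give the percent of genes that had a promoter peak for MIZ-1WT (blue) and MIZ-1DPOZ (orange) for each complex, for all 98 members and for all 21938 protein-coding nuclear genes, with 95% Wilson intervals. All members together sit at 20.4% and 32.7%, against 30.9% and 48.7% for all genes, and the intervals of the single complexes overlap each other.

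Complex I, the NADH dehydrogenase that feeds most electrons into the chain, had promoter peaks at 7 of 38 members in the MIZ-1WT list (18.4%, against 30.9% of all genes). The MIZ-1DPOZ list had them at 12 (31.6%, against 48.7%). Only Ndufa5 had one in both (2.63%, against 26.7%). Ndufa5, an accessory subunit of the arm that reaches into the matrix, carried the strongest MIZ-1WT promoter peak of all members, with 24 fragments at the summit, 13.4-fold enrichment and a −log10 q of 22.6 at chr6:24527478-24527743. In the MIZ-1DPOZ list its peak had 12 fragments, 5.54-fold enrichment and a −log10 q of 5.96. It was the only member whose MIZ-1WT pileup was above 11 fragments. Its summits lay 46 bp before and 26 bp after the inner of its 2 starts, in exon sequence.

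In the MIZ-1WT list only, 6 further genes of complex I had a promoter peak (15.8%, against 4.22% of all genes). Ndufa6, a small matrix-side subunit that binds the acyl carrier protein, had 11 fragments and a −log10 q of 6.03. Ndufa13 (also known as GRIM-19) and Ndufb9, an accessory subunit of the membrane arm, each had 9 fragments and a −log10 q of 4.14. The Ndufa13 summit lay 605 bp before its start and was nearer to a start of Yjefn3. Ndufv2, which holds an iron-sulfur cluster of the module that oxidises NADH, and Ndufb7, of the membrane arm, each had 8 fragments and a −log10 q of 3.28. These peaks were low, since only Ndufa6 among them passed a −log10 q of 5. The nearest MIZ-1DPOZ peaks to the Ndufa6, Ndufa13, Ndufb9, Ndufv2 and Ndufb7 peaks were 8368 to 9912 bp away. Ndufa11, a membrane arm subunit, made up the number with 8 fragments, and its summit lay 1103 bp before its start, nearest to a start of Vmac.

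In the MIZ-1DPOZ list only, complex I contributed 11 members (28.9%, against 22.0% of all genes). Ndufab1, the mitochondrial acyl carrier protein, had the strongest, with 14 fragments and a −log10 q of 7.89. Ndufa10, a subunit related to nucleoside kinases, had 13 fragments and a −log10 q of 6.90. Ndufc1, a short membrane arm subunit, and Ndufs4, an accessory subunit needed for a stable NADH-oxidising module, each had 12 fragments. The other 7 genes (Ndufb3, Ndufb4, Ndufb5, Ndufb6, Ndufb8, Ndufb11 and Ndufs6) had 7 to 10 fragments. No promoter peak in either list was present at 20 members assigned to complex I by stem (52.6%, against 47.1% of all genes). Among them were Ndufa1, Ndufa2, Ndufa3, Ndufa4, Ndufa4l2, Ndufa7, Ndufa8, Ndufa9, Ndufa12, Ndufb2, Ndufb10, Ndufc2, Ndufs1, Ndufs3, Ndufs5, Ndufs7, Ndufs8, Ndufv1 and Ndufv3.

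Complex II, which is also the succinate dehydrogenase of the citric acid cycle, had a single promoter peak among its 4 members. It was in the MIZ-1DPOZ list (25.0%, against 48.7% of all genes), and the MIZ-1WT list had none (against 30.9%). Sdhb, the iron-sulfur subunit, had 12 fragments and a −log10 q of 5.96 in the MIZ-1DPOZ list, and its summit lay 413 bp after its start in an intron. The nearest MIZ-1WT peak to it was 5073 bp away and had 8 fragments. Sdha, the flavoprotein, and Sdhc and Sdhd, the membrane anchors, had none.

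Complex III, the cytochrome c reductase, had promoter peaks at 3 of 8 members, and each of the 3 was in both lists. The share of 37.5% stood against 30.9% of all genes for MIZ-1WT, 48.7% for MIZ-1DPOZ and 26.7% for both lists. Uqcrc2, a core protein facing the matrix, had 11 fragments for MIZ-1WT and 12 for MIZ-1DPOZ, with summits in an intron 402 and 309 bp after its start. Uqcrfs1, the Rieske iron-sulfur protein that takes electrons from ubiquinol, had 8 and 15 fragments. Uqcrh, the hinge protein beside cytochrome c1, had 7 and 16 fragments, but its summits lay 1321 and 1283 bp before its start and were nearer to a start of Lrrc41. Uqcr10, Uqcr11, Uqcrb, Uqcrc1 and Uqcrq had no promoter peak.

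Complex IV, cytochrome c oxidase, had promoter peaks at 2 of 17 members in the MIZ-1WT list and at 6 in the MIZ-1DPOZ list, and the 2 were among the 6. The shares were 11.8% for MIZ-1WT and 35.3% for MIZ-1DPOZ, against 30.9% and 48.7% of all genes, and 11.8% against 26.7% for both lists. Cox4i1, the widely expressed form of the subunit 4 family that contacts the catalytic core, had 8 and 12 fragments, and both summits were nearest to starts of other genes, Emc8 and Gm27021. Cox6c, a small transmembrane subunit, had 8 and 9 fragments. Cox7a1, the form of heart and skeletal muscle, had the strongest MIZ-1DPOZ promoter peak of all members, with 17 fragments, 7.55-fold enrichment and a −log10 q of 10.9, lying 515 bp before its start. Cox6a1, the widely expressed form of its subunit, had 15 fragments and a −log10 q of 8.91 in the MIZ-1DPOZ list. Cox7c had 11 fragments there, 1460 bp before its start in sequence of which 94.0% was marked as repeat, and Cox6a2, the muscle form, had 7.

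Among the 7 tissue-restricted forms of complex IV subunits, which are best known from muscle, testis or lung, Cox6a2 and Cox7a1 had a MIZ-1DPOZ peak and none had a MIZ-1WT peak. These shares were 28.6% against 48.7% of all genes, and 0.0% against 30.9%. No promoter peak was present at Cox4i2, Cox5a, Cox5b, Cox6b1, Cox6b2, Cox7a2, Cox7b, Cox7b2, Cox8a, Cox8b and Cox8c. Both peaks with over 50% of masked bases, at Cox7a1 and Cox7c, had sequences around the summit that occur once in the genome, as did every other promoter summit of the members.

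Complex V, the ATP synthase, had promoter peaks at 6 of 17 members in the MIZ-1WT list and at 7 in the MIZ-1DPOZ list, with 4 in both. The shares were 35.3%, 41.2% and 23.5%, against 30.9%, 48.7% and 26.7% of all genes. In the catalytic head, Atp5a1 (alpha) was in both lists with 10 and 11 fragments. Atp5b (beta, the site of ATP synthesis) and Atp5c1 (gamma, the central shaft) were in the MIZ-1DPOZ list only, with 9 and 12 fragments. Atp5d (delta) and Atp5e (epsilon), at the foot of the shaft, were in the MIZ-1WT list only, with 10 and 7 fragments. At Atp5d the nearest MIZ-1DPOZ peak was 1686 bp away with 16 fragments. That peak, with its summit at chr10:80139019, lay within the annotated span of Atp5d itself, which begins at chr10:80138632. Its summit was 2438 bp before the main transcript start. It was outside the promoter windows of the starts used here and was counted as a gene body peak. The class of Atp5d therefore depends on the set of transcripts used.

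For the membrane ring and the outer stalk of complex V, Atp5g2 and Atp5g3, which encode the same proton-carrying subunit c, were in both lists. Atp5g2 had 9 and 14 fragments and Atp5g3 had 8 and 16. Atp5g1, the third gene for subunit c, had no promoter peak. Atp5j, the coupling factor of the stalk, had 9 and 14 fragments. Its peaks counted for Gabpa as well, the gene of an ETS factor known for its sites at respiratory chain promoters, whose start lies 686 bp away on the other strand. Atp5h, a stalk subunit, was in the MIZ-1DPOZ list only with 14 fragments and a −log10 q of 7.42, nearest to a start of Kctd2. Atp5f1, Atp5j2, Atp5k, Atp5l, Atp5mpl and both Atp5o models had no promoter peak.

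The assembly and other factors, which build or join the complexes or share a symbol stem with them, had promoter peaks at 2 of 14 members in the MIZ-1WT list and at 3 in the MIZ-1DPOZ list. Their shares were 14.3% and 21.4%, against 30.9% and 48.7% of all genes. Atp5s (factor B), with 9 and 11 fragments, was in both, and its peaks did not overlap. Ndufaf6, a complex I assembly factor, was in the MIZ-1WT list only with 8 fragments. Ndufaf4, another complex I assembly factor, had 13 fragments and a −log10 q of 6.90, and Sdhaf2, which attaches the flavin to Sdha, had 9, both in the MIZ-1DPOZ list only. Cox7a2l, Ndufaf1, Ndufaf2, Ndufaf3, Ndufaf5, Ndufaf7, Ndufaf8, Sdhaf1, Sdhaf3 and Sdhaf4 had none.

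**Figure D2:**
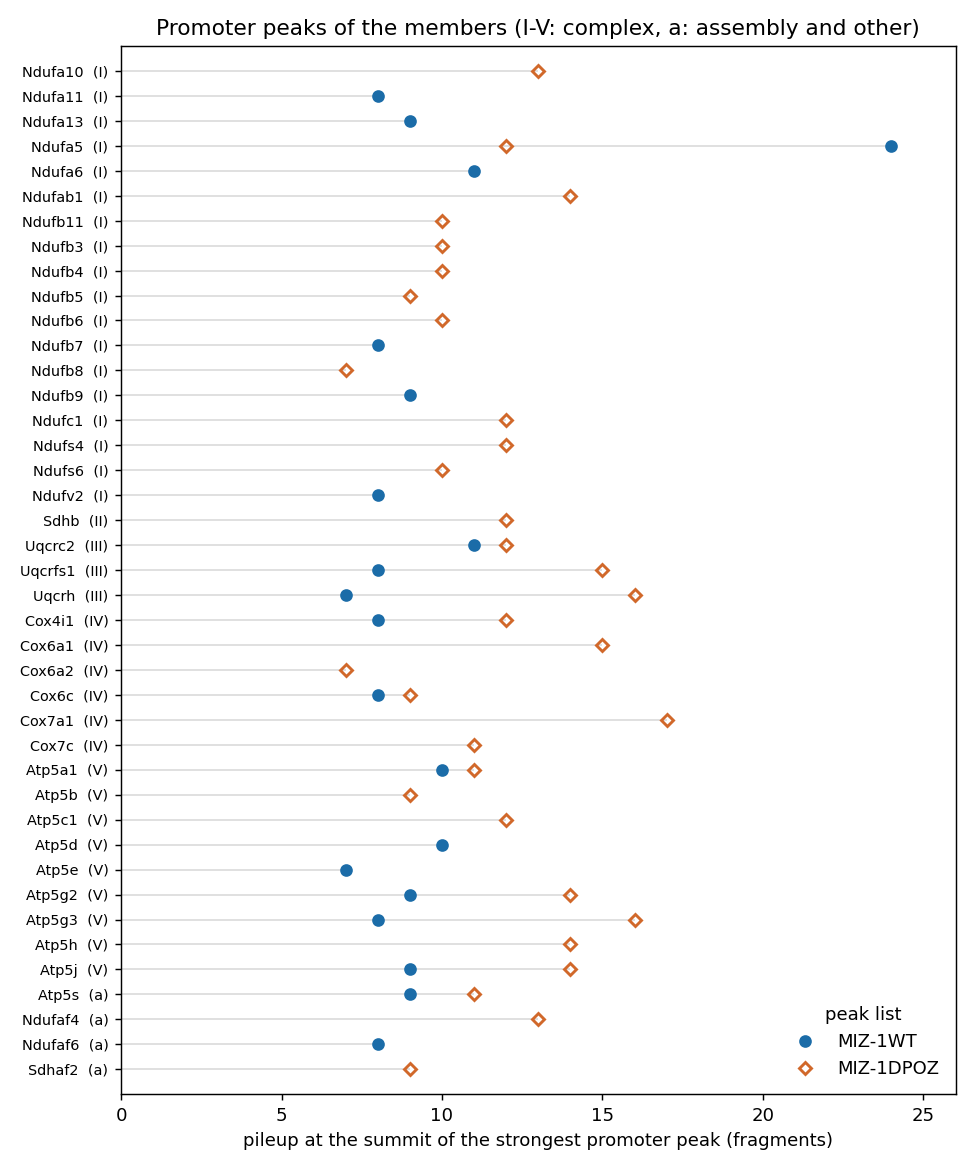
Each row is 1 of the 41 members with a promoter peak, and the symbols give the summit pileup in fragments of its strongest peak in the MIZ-1WT list (filled circle) and the MIZ-1DPOZ list (open diamond), not scaled for depth. Ndufa5 stands out with 24 MIZ-1WT fragments, and all other pileups lie between 7 and 17.

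Whether signal at the shared promoters differed between the libraries was asked with the ratio of MIZ-1DPOZ to MIZ-1WT pileup after division by the depth ratio of 1.34. At Ndufa5 the ratio was 0.373 (95% exact binomial interval 0.170 to 0.775), the only one of the 11 members whose interval excluded 1. Over all 5847 genes with a promoter peak in both lists, 1.39% had an interval below 1 and 0.992% one above 1. At 10 of the 11 members the peaks of both lists overlapped (90.9%), against 88.5% of all such genes.

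The other 10 members in both lists had intervals that included 1, and with 7 to 16 fragments differences within these intervals were not detectable. Uqcrh had the highest ratio (1.70, 0.663 to 4.90), followed by Atp5g3 (1.49, 0.602 to 4.03) and Uqcrfs1 (1.40, 0.557 to 3.81). Atp5g2 and Atp5j had the same ratio (1.16, 0.468 to 3.04), and Cox4i1 had 1.12 (0.420 to 3.15). Below 1 lay Atp5s (0.911, 0.343 to 2.49), Cox6c (0.839, 0.287 to 2.50), Atp5a1 (0.820, 0.316 to 2.15) and Uqcrc2 (0.814, 0.329 to 2.03). In all, 6 members were above 1 and 5 below. The median log2 ratio was 0.16 (quartiles −0.27 and 0.35), beside 0.09 (−0.25 and 0.38) for all genes in both lists. These quartiles describe the spread between genes and not between animals or libraries. Scaled by the backgrounds alone, a ratio of 1.57, the direction of the median turned to −0.06, with 3 members above 1 (Atp5g3, Uqcrfs1 and Uqcrh) and 8 below. Ndufa5 was then at 0.319 (0.145 to 0.663) and again the only member whose interval excluded 1.

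**Figure D3:**
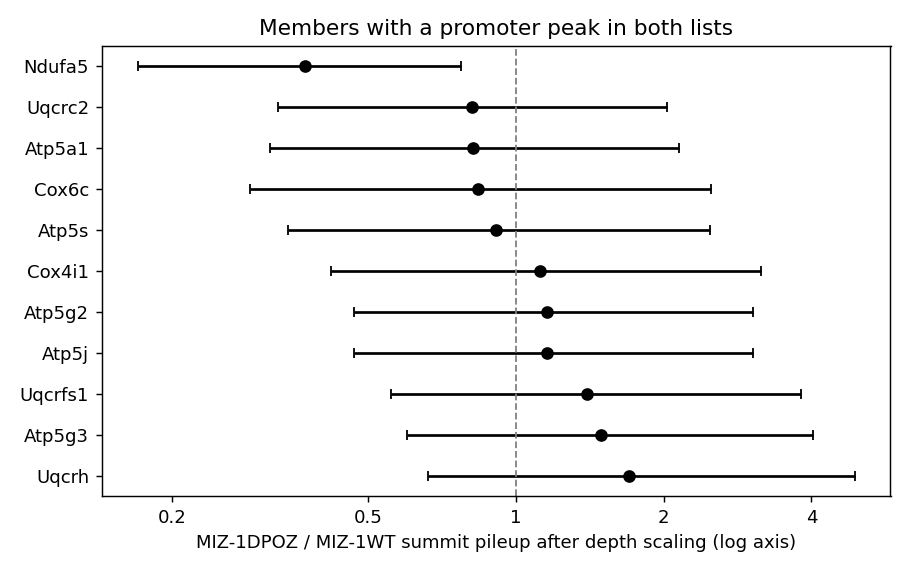
Points give the depth-scaled ratio of MIZ-1DPOZ to MIZ-1WT summit pileup on a log axis for the 11 members with a promoter peak in both lists, with exact 95% intervals, and the dashed line marks a ratio of 1. Ndufa5 at 0.373 is the only member whose interval does not reach the line.

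Heights were then compared with those of all genes that had such a peak. In the MIZ-1WT list the members' promoter peaks had a median of 8.5 fragments (range 7 to 24), beside 9 for all genes. In the MIZ-1DPOZ list the median was 12 (range 7 to 17), beside 13. A −log10 q of at least 5 was reached by 3 of the 20 MIZ-1WT peaks (15.0%, against 31.7% of all genes with a promoter peak), at Ndufa5, Ndufa6 and Uqcrc2. In the MIZ-1DPOZ list it was reached by 20 of 32 (62.5%, against 68.4%).

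Promoter peaks were more frequent in GC-rich promoters across all genes, so the members were also read within 5 classes of GC content over 500 bp to each side of the main start. Median promoter GC was 56.3% for the members and 55.1% for all genes. In the class from 57.5 to 62.9% GC, 24.0% of the 25 members had a MIZ-1WT peak, against 43.3% of all genes, and 36.0% had a MIZ-1DPOZ peak, against 70.9%. In the class from 52.6 to 57.5%, with 43 members, the shares were 16.3% against 21.7% and 23.3% against 45.8%. The richest class held 8 members, at 50.0% against 72.6% and at 62.5% against 90.7%. In the class from 45.6 to 52.6% the order turned, with 15.8% of 19 members against 11.2%, and 42.1% against 25.2%. The poorest class, from 20.1 to 45.6%, held only 3 members, none with a promoter peak, against 4.97% and 10.3% of all genes. Members had a median of 1 transcript start, against 2 for all genes. Of the members with 1 start, 15.7% had a MIZ-1WT peak and 25.5% a MIZ-1DPOZ peak, against 26.7% and 44.6% of all genes with 1 start, and the part of the number of starts in these shares was not tested.

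**Figure D4:**
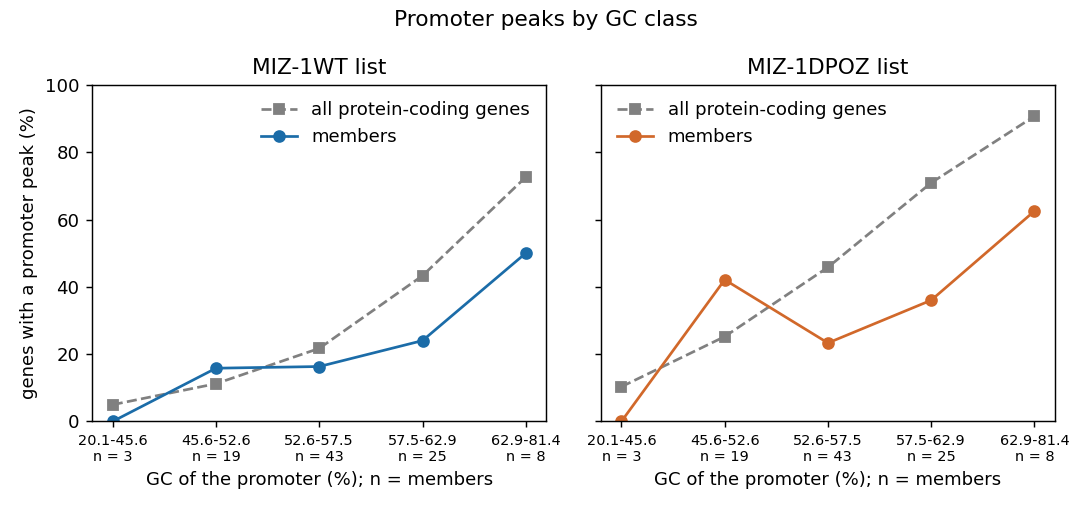
Lines give the percent of genes with a promoter peak in each of 5 classes of promoter GC content, for the members (coloured circles) and for all protein-coding nuclear genes (grey squares), in the MIZ-1WT list on the left and the MIZ-1DPOZ list on the right. The members lie below all genes in the 3 richest classes of both lists and above them only in the class from 45.6 to 52.6%. In the poorest class, with 3 members, none has a peak.

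Summits lay within 500 bp of a start about as often as over all genes, but less often within 100 bp. The median position was 46 bp after the nearest start of the member in the MIZ-1WT list, against 85 bp, and 128 bp in the MIZ-1DPOZ list, against 124 bp. Within 500 bp lay 16 of 20 MIZ-1WT summits (80.0%, against 81.8%) and 28 of 32 MIZ-1DPOZ summits (87.5%, against 79.2%). Within 100 bp lay 5 of 20 MIZ-1WT summits (25.0%, against 30.9%) and 4 of 32 MIZ-1DPOZ summits (12.5%, against 25.6%). The start nearest to the summit belonged to the member itself for 15 of 20 MIZ-1WT peaks (75.0%, against 87.5% over all genes) and 26 of 32 MIZ-1DPOZ peaks (81.2%, against 87.9%). The exceptions for MIZ-1WT were Atp5s, Cox4i1, Ndufa11, Ndufa13 and Uqcrh. Those for MIZ-1DPOZ were Atp5h, Cox4i1, Ndufb3, Ndufb11, Sdhaf2 and Uqcrh. Divergent promoters, with a start on the opposite strand within 1000 bp upstream, were present at 33 members. Of these, 9 (27.3%) had a MIZ-1WT peak and 15 (45.5%) a MIZ-1DPOZ peak. The 65 members without one had 11 (16.9%) and 17 (26.2%). Over all genes the same order was present, at 41.0% and 61.1% of the 3215 genes with a divergent start and 29.1% and 46.6% of those without. Shared promoters included Ndufa5 with Asb15 (131 bp), Atp5a1 with Haus1 (70 bp), Ndufs6 with Mrpl36 (51 bp) and Ndufb11 with Rbm10 (3 bp), and a peak there cannot be told apart as belonging to one gene or the other.

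**Figure D5:**
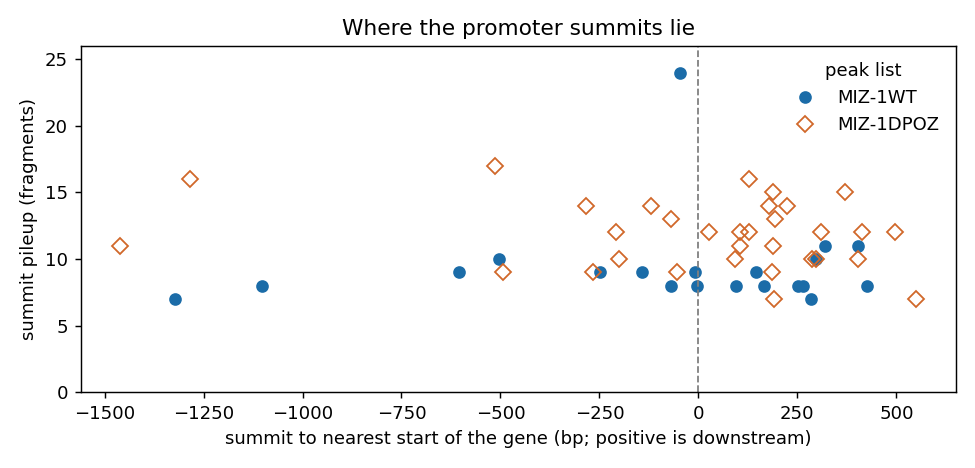
Each symbol is the strongest promoter peak of 1 member in the MIZ-1WT list (filled circle) or the MIZ-1DPOZ list (open diamond), with its distance in bp to the nearest start of the gene on the horizontal axis, positive downstream, and its pileup on the vertical axis. Most summits lie within 500 bp of the start, and the farthest, at Uqcrh, Cox7c and Ndufa11, lie more than 1000 bp before it.

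Motifs of factors known at respiratory chain promoters were counted as exact letters on both strands, from 250 bp before to 50 bp after the main start. The NRF1 core GCATGCGC, the binding sequence of nuclear respiratory factor 1, was in 11 of 98 members (11.2%), against 3.77% of all promoters. The ETS core CCGGAAG was in 18 (18.4%, against 11.1%) and the YY1 core AAGATGGC in 9 (9.18%, against 3.03%). The E-box CACGTG, to which MYC binds, was in 8 (8.16%, against 7.8%). The short MIZ-1 motifs ATCGAT and ATCGGTAA were in none, against 0.875% and 0.0912% of all promoters. With shares this low over all promoters, their absence from 98 members says little. The window also ended 50 bp after the main start, whereas the median MIZ-1DPOZ summit of the members lay 128 bp after the nearest start. Summits beyond the window were therefore not searched in this count. Among the 41 members with a promoter peak in either list, 14.6% held the NRF1 core and 14.6% the ETS core, and among the 57 without one 8.77% and 21.1% did. The YY1 core was in 4.88% of those with a peak and 12.3% of those without, and the E-box in 4.88% and 10.5%.

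The NRF1 core is shown at the 6 members that had it together with a promoter peak, with the core in capitals, 10 bases to each side, on the strand of the gene. These mm10 positions are chr4:24897962-24897989 (plus strand) for Ndufaf4, chr15:102671070-102671097 (minus strand) for Atp5g2, chr5:115349101-115349128 (minus strand) for Cox6a1, chr4:140961207-140961234 (plus strand) for Sdhb, chr15:82354357-82354384 (minus strand) for Ndufa6 and chr17:56717694-56717721 (plus strand) for Ndufa11.
Ndufaf4: agatgtctgcGCATGCGCctgtgcggaa
Atp5g2: ctccggccgcGCATGCGCagagccttcc
Cox6a1: ggaacggggcGCATGCGCgctctcgctc
Sdhb: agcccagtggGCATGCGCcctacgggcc
Ndufa6: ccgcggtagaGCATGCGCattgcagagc
Ndufa11: tgcactgcgcGCATGCGCgcacgccttg
At Ndufaf4 the core lay 39 bp from the MIZ-1DPOZ summit, and a further core lay 73 bp from it. At Atp5g2 the core shown lay 101 bp from the MIZ-1WT summit and 180 bp from the MIZ-1DPOZ summit. A further core there lay 366 and 445 bp from these summits. The distance of the core shown to the summit was 322 bp at Cox6a1, 396 bp at Sdhb, 436 bp at Ndufa6 and 1043 bp at Ndufa11. In 4 of the 6 members the core shown was therefore more than 300 bp from the summit.

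Gene bodies were searched for peaks that touched no promoter window of the gene. In the MIZ-1WT list 16 such peaks lay in 8 members (8.16%, against 24.2% of all genes), and in the MIZ-1DPOZ list 49 lay in 18 members (18.4%, against 42.8%). The members are short, with a median body of 6.31 kb against 15.7 kb. Per 100 kb of body there were 1.10 and 3.36 peaks, against 1.00 and 2.58, and without the Atp5o model that spans neighbouring genes 0.822 and 2.47.

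The gene body peaks with the most fragments lay in repeats of Sdhaf3 and, for MIZ-1DPOZ, of Cox7b2. In introns of Sdhaf3, a complex II assembly factor, the MIZ-1DPOZ list had 61 and 75 fragments at summits whose sequences occur 2852 and 1095 times in the genome, where the MIZ-1WT list had 21 and 17. In Cox7b2, a testis form of a complex IV subunit, the MIZ-1DPOZ list had 51 fragments and the MIZ-1WT list 13. The sequence there is present over 1000 times in the genome. All of these windows were 100% masked, and the origin of their fragments in the genome cannot be told apart. The long Atp5o model had 6 peaks in the MIZ-1WT list, led by 15 and 13 fragments, and 19 in the MIZ-1DPOZ list, led by 26 and 24. The summit with 15 fragments was single-copy with no masked bases. The one with 24 had no masked bases, but its sequences occur 6 times in the genome. The one with 26 had sequences that occur 4 times, with 82.6% of bases masked. At a single-copy summit in an intron of Ndufa9, an accessory subunit of complex I, the MIZ-1DPOZ list had 20 fragments at chr6:126845905-126846150, and no MIZ-1WT peak overlapped it. Counting promoters and bodies, 27 members had a MIZ-1WT peak (27.6%, against 44.6% of all genes), 47 a MIZ-1DPOZ peak (48.0%, against 65.9%) and 45 no peak in either list (45.9%, against 30.4%).

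Genes that work with the members were described from lists of the wider pathway. Of 23 further assembly factors, 5 had promoter peaks in both lists (21.7%, against 26.7% of all genes), 8 in that of MIZ-1DPOZ only (34.8%, against 22.0%), 0 in that of MIZ-1WT only (against 4.22%) and 10 in neither (43.5%, against 47.1%). The strongest was Cox19, a small protein needed to build complex IV, with 64 fragments in the MIZ-1WT list (−log10 q of 68.5) and 16 in the MIZ-1DPOZ list, a depth-scaled ratio of 0.186 (0.101 to 0.326). Ttc19, a complex III assembly factor, had 13 and 8 fragments (0.459, 0.165 to 1.19). Cyc1, cytochrome c1, had 12 fragments in the MIZ-1DPOZ list only, and Cycs and Cyct, the somatic and testis cytochromes c, had no promoter peak. Of 12 genes listed as regulators, 5 were in both lists (Nrf1, Gabpa, Ppargc1b, Tfb2m and Polg). A further 3 were in the MIZ-1DPOZ list only (Yy1, Esrra and Tfam), with 1 for MIZ-1WT only (Gabpb1) and 3 in neither. Polg is the mitochondrial DNA polymerase rather than a regulator, and Gabpa was counted through the same peaks as Atp5j. The shares of the 12 were 41.7%, 25.0%, 8.33% and 25.0%, against 26.7%, 22.0%, 4.22% and 47.1% of all genes. Nrf1 itself had 17 fragments in each list, a ratio of 0.746 (0.358 to 1.55).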

How the data were processed

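MIZ-1 ChIP-seq peaks of B220+ splenocytes were taken as deposited, 1 list per genotype, called against the matching input on mm10. The study's methods name Trimmomatic, bwa and MACS2, whereas the submitters' processing notes name Bowtie2 2.2.6 and MACS2 2.1.0, so the aligner is uncertain. The q-value cutoff, and how duplicate or multi-mapping reads were handled, is not given in the sources used here. The smallest deposited −log10 q was 1.03 (MIZ-1WT) and 1.01 (MIZ-1DPOZ). For each peak the authors deposited the fold enrichment at the summit, a ratio to the local background. They also deposited the −log10 of a p-value and of a q-value. The signal in reads and the inputs were not analysed here.

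Whole-number summit pileups were solved from the deposited fold and −log10 p by the MACS2 formulas (largest misfit 0.00023) and tested on 2000 simulated peaks. The depth ratio is the most frequent background (0.86 and 1.35 fragments) divided by the smallest peak width (148 and 173 bp). Genes came from GENCODE vM21 basic on GRCm38, the same assembly as mm10, with coordinates from 1. Members and lists were chosen with earlier results of these data known. Complexes were set by symbol stem. Named members were the 8 strongest in both lists by the smaller −log10 q, the 6 strongest in each list only, members whose ratio interval excludes 1, members without a promoter peak, and the 5 strongest gene body peaks of each list. Others were named after their values were seen. Some genes are not reported here individually. Motif letters are textbook cores. A summit was single-copy when 5 sequences of 50 bases near it had a median genome count of 1, and masked bases were read within 100 bp of it. Software was scipy 1.17.1, numpy 2.4.6, numba 0.67.0, pandas 2.3.3 and matplotlib 3.10.9 under Python 3.11.15. Alternatives were stricter cutoffs, other windows, start and overlap rules, lists of equal length, single-copy summits and subunits only. Leaving out the long Atp5o model was added after seeing the data.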

Additional observations from a re-analysis of the deposited data

How the results depend on the processing

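Counts of members moved with the peak cutoff and with the length of the lists. With −log10 q held to 5 or more, the MIZ-1WT list had promoter peaks at 3 members, the MIZ-1DPOZ list at 20, both at 2 and the MIZ-1WT list only at 1. At a fold of at least 5, these counts were 9, 20, 5 and 4. With the MIZ-1DPOZ list shortened to the length of the MIZ-1WT list, 16 members had a MIZ-1DPOZ peak, 6 were in both lists, 14 in the MIZ-1WT list only (14.3%, against 14.8% of all genes) and 10 had one for MIZ-1DPOZ alone. An excess of the MIZ-1WT list only over its background was thus not present there, nor at either cutoff (1.02% against 2.67%, and 4.08% against 5.78%). It remained with the other windows and start rules, with single-copy summits and with subunits only. With 500 bp to each side it was 7.14% against 3.86%, and at single-copy summits 9.18% against 4.18%. In each setting the members' shares in each list and in both lists were below those of all genes. Overlap fell from 10 of the 11 members to 2 with a reciprocal overlap of 50%, to 6 with summits within 100 bp, and was 2 of 2 under the stricter q. The median log2 ratio was −0.06 when scaled by the backgrounds alone. Gene body peaks numbered 7 (MIZ-1WT) and 31 (MIZ-1DPOZ) under the stricter q, 9 in the MIZ-1WT list at single-copy summits, and 10 and 30 without the long Atp5o model. No paired analysis was possible because there was only 1 ChIP library for each genotype.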
